A study of Mus musculus with 4 samples.

Results

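The chemokine ligands examined here were 10 genes of the CXC, CC and CX3C families that stromal cells are known to make, namely Cxcl1, Cxcl2, Cxcl5, Cxcl10, Cxcl12, Cxcl16, Ccl2, Ccl5, Ccl7 and Cx3cl1. They were chosen by gene symbol, and each of the 10 had 1 row among the 23358 gene rows of the deposited tables. RNA sequencing had been done on 2 clonal mouse lines that the submitters call progenitors of interstitial cells of Cajal (cells that pace gut contractions), with 2 libraries per line. The line 2xSCS70 was derived from the gastric muscle coat of H-2Kb-tsA58 mice, which carry a thermolabile SV40 large T antigen behind an H-2Kb promoter that interferon induces. It was kept at 39.5 °C with no interferon gamma added. The line 2xSCS2F10 was derived from the same tissue of C57BL/6J mice and was kept at 37 °C with 5% chick embryo extract. Both lines were grown in the same neural stem cell proliferation medium. Each line is 1 clone, and clone, strain, transgene, temperature and supplement differ together between the lines, so these cannot be told apart.

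Chemokines are small secreted proteins that direct the migration of leukocytes and other cells through G protein-coupled receptors. The families are named for the spacing of their first cysteines. CXC ligands such as Cxcl1, Cxcl2 and Cxcl5 act on Cxcr2 and attract neutrophils, Cxcl10 acts on Cxcr3 and is induced by interferon, Ccl2 and Ccl7 attract monocytes through Ccr2, Ccl5 attracts T cells and monocytes, and Cxcl12 retains progenitor cells through Cxcr4. In stromal cells many inflammatory chemokines are induced through the transcription factor NF-kB, while Cxcl12 is commonly made without such a stimulus. In the gut wall, stromal chemokines are known for recruiting and positioning macrophages and other leukocytes.

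The libraries held between 20159986 and 24485632 fragments in genes. Of 8 markers of the labelled cell type, Kit, the defining receptor of the mature pacemaker cells, had at most 1 fragment in any library. The progenitor markers Cd34 and Cd44 had 5967 to 8207 fragments in 2xSCS70 and 945 to 2466 in 2xSCS2F10. Ano1, another of the 8, had 63 and 62 fragments in 2xSCS70, against 580 and 350 in 2xSCS2F10. The summed level of 6 mesothelial markers was 80.9 to 90.7 CPM (counts relative to library size) in 2xSCS70 and 3413 to 3916 CPM in 2xSCS2F10. Of 11 leukocyte markers with a row, Adgre1 (Emr1), Cd52 and Tyrobp had 0 counts in every library, Ptprc had 0 fragments in all but 2xSCS2F10 replicate 1, where it had 3, and the list summed to between 3.80 and 7.56 CPM. The 7 endothelial markers summed to between 4.23 and 9.60 CPM. Levels are compared between genes in RPKM, which relates reads to the gene length given in the tables, and between lines in CPM scaled with TMM factors. Fold changes are those of 2xSCS70 over 2xSCS2F10 by edgeR's quasi-likelihood test, with p-values adjusted over 14496 tested genes by the Benjamini-Hochberg method and a threshold of 0.05. In RNA from whole cultures, fewer cells that express a gene and less RNA per cell cannot be told apart. The labels did not say that libraries came from separate cultures, so p-values measure only how these libraries vary, and that variation may be technical.

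In 2xSCS70 the chemokine mRNAs were led by Ccl2 and Ccl7, and in 2xSCS2F10 the leading ligand differed between the libraries. Ccl2 took 49.1% and 46.2% of the summed RPKM of the 10 ligands in 2xSCS70, followed by Ccl7 with 21.0% and 23.1% and Cxcl12 with 15.7% and 15.8%. In 2xSCS2F10 replicate 1, Cxcl12 took 66.6% and Ccl2 15.5%, whereas in replicate 2 Ccl2 took 45.6% and Cxcl12 25.4%. By mean RPKM the order in 2xSCS70 was Ccl2, Ccl7, Cxcl12, Cxcl1, Cxcl10, Cxcl5, Cxcl16, Ccl5, Cx3cl1 and Cxcl2. The ranges of neighbours overlapped there for Cxcl10 with Cxcl5, Cxcl16 with Ccl5 and Ccl5 with Cx3cl1. In 2xSCS2F10 the order was Cxcl12, Ccl2, Ccl7, Cxcl1, Cxcl10, Cxcl16, Cx3cl1, Cxcl2, Ccl5 and Cxcl5, and every neighbouring pair overlapped except Cx3cl1 with Cxcl2.

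**Figure D1:**
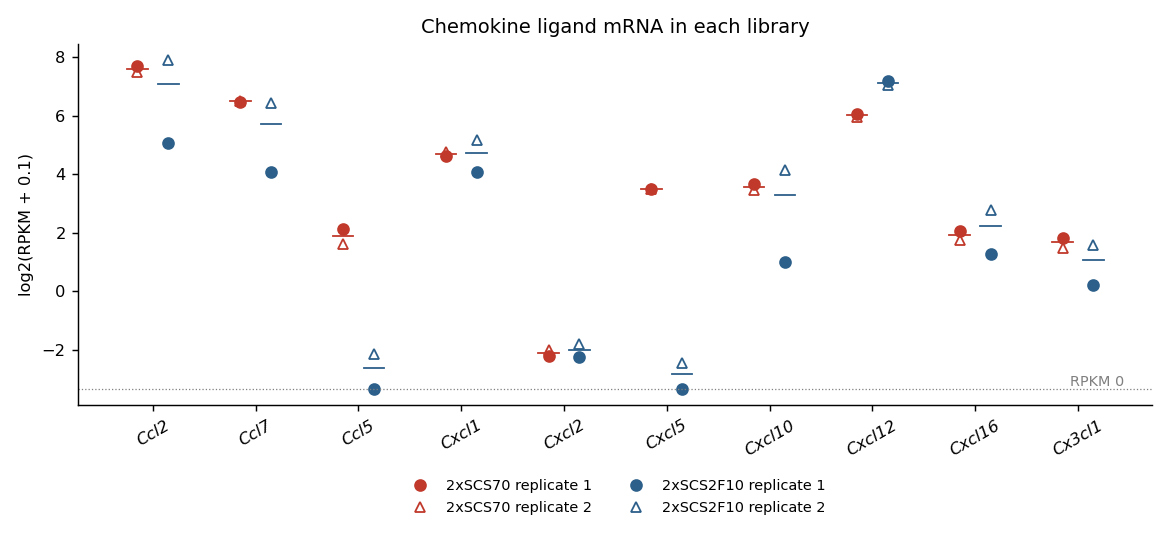
Level of each chemokine ligand, as log2(RPKM + 0.1), in the 2 libraries of 2xSCS70 (red, left of each pair) and of 2xSCS2F10 (blue, right), with filled circles for replicate 1, open triangles for replicate 2 and a bar at the mean RPKM of the line. The 2xSCS70 libraries lie close together for every ligand, while the 2xSCS2F10 libraries are far apart for Ccl2, Ccl7 and Cxcl10. Cxcl5, Ccl5 and Cxcl12 separate the lines clearly.

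Of the 10 ligands, 2 were higher (Cxcl5 and Ccl5) and 1 was lower (Cxcl12) in 2xSCS70, and 7 did not pass the test. Cxcl5 and Ccl5 passed the low-count filter only through 2xSCS70, so the direction of their calls is not independent of that filter. Over all tested genes, 40.6% were called, 18.8% higher and 21.8% lower, so the share of ligands called was not above that of genes in general. The median log2 fold change of the ligands was 0.07, beside 0.02 for all tested genes. For 6 of the 7 ligands that did not pass, both 2xSCS70 libraries lay between the 2xSCS2F10 libraries in CPM, a position found for 9.39% of tested genes. In CPM the lines did not overlap for 3 ligands, against 77.4% of tested genes.

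The monocyte attractants Ccl2 and Ccl7 were the most abundant ligands of 2xSCS70 and reached similar levels in only 1 library of 2xSCS2F10. Ccl2 (chromosome 11, 82035577 to 82037452, mm10) was at 208 and 182 RPKM in 2xSCS70, against 33.5 and 237 RPKM in replicates 1 and 2 of 2xSCS2F10. The 2xSCS70 values thus lay between a low and a high library of 2xSCS2F10, and the lines overlapped. The mean was 189 ± 4.41 CPM in 2xSCS70 and 165 ± 185 CPM in 2xSCS2F10 (SD, n = 2 each), a log2 fold change of 0.19 (SE 0.91, edgeR adjusted p = 0.879). Ccl7 (chromosome 11, 82045712 to 82047523), which begins 10.1 kb from the start of Ccl2, had its low value in the same library. It was at 89.0 and 91.0 RPKM in 2xSCS70, against 16.7 and 87.3 RPKM in 2xSCS2F10 (log2 fold change 0.47, SE 0.79, edgeR adjusted p = 0.662). In RPKM both 2xSCS70 libraries lay just above the higher 2xSCS2F10 library, but in CPM, at 81.2 and 92.0 in 2xSCS70, against 17.3 and 108 in 2xSCS2F10, they lay between the libraries of that line. Left out in turn, the 2xSCS2F10 libraries gave calls in opposite directions for both genes. Without replicate 1 of 2xSCS2F10 the log2 fold change was -0.66 for Ccl2 (edgeR adjusted p = 1.79e-07) and -0.33 for Ccl7 (0.00877). Without replicate 2 it was 2.43 for Ccl2 and 2.32 for Ccl7 (edgeR adjusted p = 1.28e-23 and 4.85e-21). The lone remaining library was taken there to vary like those of 2xSCS70.

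Ccl5, a ligand of the CC family, was low in 2xSCS70 and nearly undetected in 2xSCS2F10. It had 72 and 49 fragments in 2xSCS70 (4.31 and 3.0 RPKM), against 0 and 2 fragments in 2xSCS2F10 (0 and 0.128 RPKM). The lines did not overlap, and both 2xSCS2F10 libraries were under a floor of 3 fragments. The gene passed the low-count filter only through 2xSCS70, so its p-value is not independent of that filter. Ccl5 (chromosome 11, 83525779 to 83530518) was higher in 2xSCS70 by a ratio of 44.9, with an exact 95% interval of 12.2 to 375 that covers counting error only (edgeR log2 fold change 5.40, SE 0.83, adjusted p = 0.00837). Without 2xSCS2F10 replicate 1 the log2 fold change was 4.42. The edgeR call ended without 2xSCS70 replicate 1 (adjusted p = 0.0858) and without its replicate 2 (0.0759), where the remaining spread was that of the 2xSCS2F10 pair.

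The neutrophil attractants that act on Cxcr2 differed from each other. Cxcl5 (chromosome 5, 90759299 to 90761625) was near absent from 2xSCS2F10, Cxcl1 was present in both lines, and Cxcl2 was barely detected in any library. Cxcl5 had 589 and 565 fragments in 2xSCS70 (11.3 and 11.1 RPKM), against 0 and 4 fragments in 2xSCS2F10 (0 and 0.0819 RPKM). It was at 22.3 ± 1.31 CPM in 2xSCS70 and 0.105 ± 0.148 CPM in 2xSCS2F10 (SD, n = 2 each), a difference of 7.71 on the log2 scale (SE 0.74, edgeR adjusted p = 0.00249). Cxcl5 passed the low-count filter only through 2xSCS70, so this p-value is not independent of that filter. The fragments of both lines gave a ratio of 214 with an exact 95% counting interval of 83.4 to 787. Cxcl5 was the only ligand called in the same direction with each of the 4 libraries left out in turn, although without 2xSCS70 replicate 1 or 2 its edgeR adjusted p was 0.0472 and 0.0483. With 2xSCS2F10 replicate 1 left out, the log2 fold change was 6.70, and without replicate 2 the remaining 2xSCS2F10 library had 0 counts.

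Cxcl1 (chromosome 5, 90891245 to 90893115) was at 24.4 and 27.2 RPKM in 2xSCS70, against 16.7 and 36.2 RPKM in 2xSCS2F10. The 2xSCS70 libraries again fell between the libraries of 2xSCS2F10 (log2 fold change -0.32, SE 0.45, edgeR adjusted p = 0.597). Its sign turned on log2(RPKM + 1) values (0.06). Without 2xSCS2F10 replicate 1 it passed as lower (log2 -0.86, edgeR adjusted p = 3.66e-08) and without replicate 2 as higher (0.52, 0.00131). Cxcl2 (chromosome 5, 90903899 to 90905938) had 4 and 5 fragments in 2xSCS70, against 3 and 6 fragments in 2xSCS2F10, and no difference was detectable at this depth (edgeR adjusted p = 0.601). The ratio of 2xSCS2F10 over 2xSCS70 was 1.35, with an exact 95% interval of 0.474 to 3.83.

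Upstream sequences of 5 of the 10 ligands were at hand from RefSeq (build GRCm38.p6), those of Cxcl1, Cxcl2, Cxcl10, Cxcl12 and Cx3cl1. The 250 bases before the start of each gene were searched on both strands for the kappa B consensus, the binding motif of NF-kB, for the letters GAAANNGAAA of an interferon-stimulated response element, and for the letters TGANTCA of an AP-1 site. The first 3 of these genes held the kappa B consensus, as did 7.25% of 32851 upstream sequences in the table. It lay 71 to 61 bases before the start of Cxcl1 and 97 to 87 bases before that of Cxcl2, with the same 11 letters, which match on both strands. In Cxcl10 it lay 159 to 150 and 104 to 94 bases before the start, and Cxcl10 alone of the 5 also held the interferon element (2.98% of all) and an AP-1 match (6.75% of all). No match was present in these windows of Cxcl12 and Cx3cl1. A match describes letters and not binding. Shown are the upstream sequences of a pair of neighbouring genes at very different levels (Cxcl1 and Cxcl2), of a ligand far apart between the 2xSCS2F10 libraries (Cxcl10) and of the one ligand lower in 2xSCS70 (Cxcl12), read 5′ to 3′ along the gene's strand. They lie at chr5:90890995-90891244 (plus strand), chr5:90903649-90903898 (plus), chr5:92348890-92349139 (minus) and chr6:117168285-117168534 (plus). Capitals mark the kappa B matches and, in Cxcl10 only, also the interferon element (first) and the AP-1 match (last).
Cxcl1: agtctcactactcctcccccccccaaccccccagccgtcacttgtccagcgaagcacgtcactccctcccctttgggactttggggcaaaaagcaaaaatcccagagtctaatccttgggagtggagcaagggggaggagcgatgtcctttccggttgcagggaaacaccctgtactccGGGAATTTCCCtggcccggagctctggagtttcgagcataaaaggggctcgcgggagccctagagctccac
Cxcl2: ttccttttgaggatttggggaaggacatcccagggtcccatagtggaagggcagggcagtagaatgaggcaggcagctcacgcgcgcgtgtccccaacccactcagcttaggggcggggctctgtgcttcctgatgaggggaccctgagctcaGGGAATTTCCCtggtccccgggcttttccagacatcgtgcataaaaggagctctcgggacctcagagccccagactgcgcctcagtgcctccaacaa
Cxcl10: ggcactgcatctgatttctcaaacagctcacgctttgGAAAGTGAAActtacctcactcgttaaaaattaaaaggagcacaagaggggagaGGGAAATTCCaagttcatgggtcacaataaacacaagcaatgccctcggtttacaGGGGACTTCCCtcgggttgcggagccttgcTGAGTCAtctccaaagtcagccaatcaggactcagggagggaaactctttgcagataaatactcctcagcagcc
Cxcl12: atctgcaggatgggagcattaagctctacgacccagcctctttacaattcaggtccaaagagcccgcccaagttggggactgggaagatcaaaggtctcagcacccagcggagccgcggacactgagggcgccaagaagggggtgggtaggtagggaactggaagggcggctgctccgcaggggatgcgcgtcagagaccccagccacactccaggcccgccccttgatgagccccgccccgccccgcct

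Cxcl10, the interferon-inducible ligand of Cxcr3, had the largest ratio between the 2xSCS2F10 libraries among the 7 ligands with at least 10 fragments in both. It (chromosome 5, 92346639 to 92348889) was at 12.7 and 11 RPKM in 2xSCS70, against 1.91 and 17.4 RPKM in 2xSCS2F10. Both 2xSCS70 libraries lay between a low and a high 2xSCS2F10 library, and the log2 fold change was -0.05 (SE 0.98, edgeR adjusted p = 0.971), with a sign that turned under upper quartile scaling (0.05), on log2(RPKM + 1) values (0.81), in limma-voom (0.81) and with a replicate block (0.72). With 2xSCS2F10 replicate 1 left out, it passed as lower (log2 -0.94, edgeR adjusted p = 5.13e-08), and without replicate 2 as higher (2.51, adjusted p = 1.28e-15). Art3 overlaps Cxcl10 in the annotation, and reads of overlapping genes cannot be told apart in this unstranded kit, but Art3 had only 1 and 5 fragments in 2xSCS70 and 13 and 23 in 2xSCS2F10. The other ligands of Cxcr3 in the same cluster had few fragments. Cxcl9 had 7 and 10 fragments in 2xSCS70, against 7 and 15 in 2xSCS2F10, and Cxcl11 had 3 and 3, against 0 and 1.

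Cxcl12, the ligand of Cxcr4, was abundant in both lines and lower in 2xSCS70, and its libraries of 2xSCS2F10 had the ratio nearest to 1 among the same 7 ligands. It (chromosome 6, 117168535 to 117181368) was at 66.7 and 62.4 RPKM in 2xSCS70, against 144 and 132 RPKM in 2xSCS2F10. All libraries of 2xSCS70 were lower than those of 2xSCS2F10. The mean was 555 ± 14.0 CPM in 2xSCS70 and 1402 ± 89.7 CPM in 2xSCS2F10 (SD, n = 2 each), a 2.53-fold lower level in 2xSCS70 (edgeR log2 fold change -1.34 with SE 0.14, adjusted p = 0.0032). The call ended without 2xSCS70 replicate 1 (adjusted p = 0.0927) and without its replicate 2 (0.0892), with nearly the same log2 fold changes of -1.31 and -1.36.

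Cxcl16 and Cx3cl1 are made as membrane-anchored proteins and released by the sheddases Adam10 and Adam17. Cxcl16 (chromosome 11, 70454234 to 70459984) was at 4.06 and 3.30 RPKM in 2xSCS70, against 2.31 and 6.84 RPKM in 2xSCS2F10 (log2 fold change -0.62, SE 0.58, edgeR adjusted p = 0.423). Its annotation overlaps Zmynd15, which had 47 and 42 fragments in 2xSCS70 and 21 and 65 in 2xSCS2F10. Cx3cl1, or fractalkine (chromosome 8, 94772180 to 94782426), was at 3.44 and 2.72 RPKM in 2xSCS70, against 1.06 and 2.90 RPKM in 2xSCS2F10 (log2 fold change 0.33, SE 0.55, edgeR adjusted p = 0.656). In CPM both ligands lay in 2xSCS70 between the 2xSCS2F10 libraries. Without 2xSCS2F10 replicate 1, Cxcl16 passed as lower (log2 -1.28, edgeR adjusted p = 1.27e-10) and Cx3cl1 was at -0.30 (0.104). Without replicate 2 both passed as higher, with log2 fold changes of 0.55 (adjusted p = 0.00773) and 1.42 (adjusted p = 1.98e-08).

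**Figure D2:**
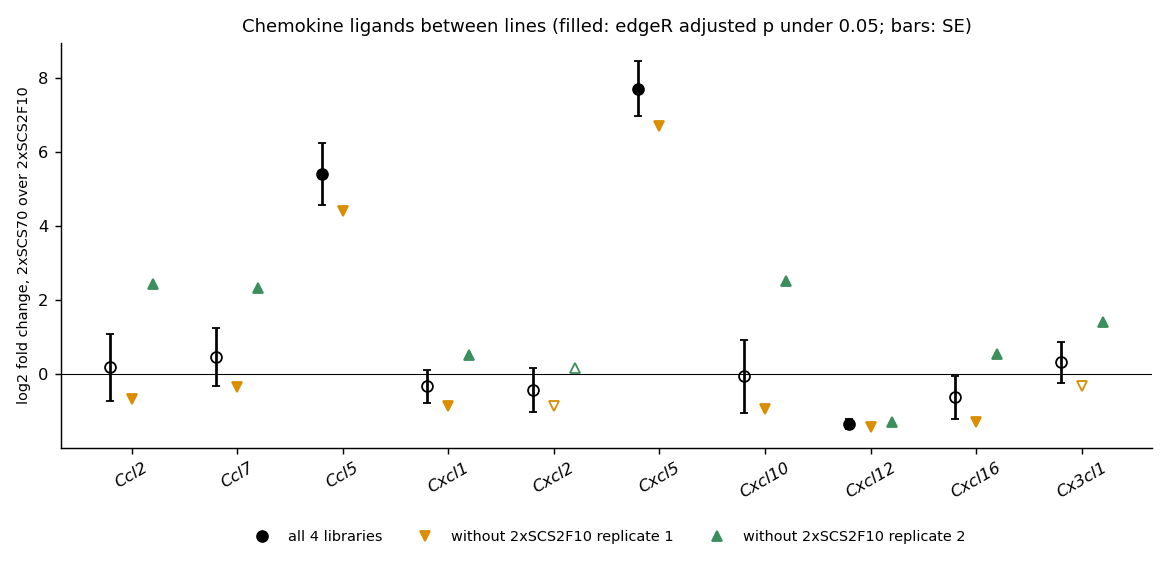
The log2 fold change of each ligand, 2xSCS70 over 2xSCS2F10, with all 4 libraries (black circles, bars are SE), without 2xSCS2F10 replicate 1 (orange) and without its replicate 2 (green), filled where the edgeR adjusted p was under 0.05. The last is not drawn for Cxcl5 and Ccl5, which had 0 counts in the remaining library. Ccl2, Ccl7, Cxcl1, Cxcl10 and Cxcl16 are called lower in one case and higher in the other, while Cxcl5, Ccl5 and Cxcl12 keep their direction.

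The number of ligands called therefore depended on which 2xSCS2F10 library entered. Without replicate 1, 2 ligands passed as higher and 6 as lower, where 32.9% and 33.1% of all tested genes did. Without replicate 2, 8 passed as higher and 1 as lower, where 30.2% and 31.6% did. When 2xSCS70 replicate 1 or replicate 2 was left out, 1 ligand (Cxcl5) passed as higher and 0 as lower in either case, and over all tested genes 2.01% or 2.18% were higher and 3.86% or 3.95% lower.

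In TMM-scaled CPM all 10 ligands were higher in replicate 2 of 2xSCS2F10 than in its replicate 1, as were 49.8% of all tested genes. In RPKM this held for the ligands other than Cxcl12, which was at 132 RPKM in replicate 2 and 144 RPKM in replicate 1. These are values of single libraries, with no test. For Cxcl2, Cxcl5 and Ccl5 they rest on 3, 0 and 0 fragments in replicate 1 and 6, 4 and 2 in replicate 2. Of the 7 ligands with at least 10 fragments in each 2xSCS2F10 library, 6 were more than 2-fold higher in replicate 2. This held for 6.51% of all tested genes, a share counted without that minimum of fragments. The ratio of replicate 2 to replicate 1 in CPM was 10.9 for Cxcl10, 8.46 for Ccl2, 6.24 for Ccl7, 3.53 for Cxcl16, 3.27 for Cx3cl1 and 2.58 for Cxcl1, and 1.09 for Cxcl12. Of all tested genes, 6.82% were more than 2-fold lower in that replicate. In 2xSCS70 the same ratio lay between 0.771 and 1.42, with 5 of the 10 ligands higher in replicate 2 (48.4% of tested genes) and 0 past 2-fold either way (2.44% of tested genes higher and 1.63% lower). The median log2 difference between replicate 2 and replicate 1 of the ligands was 1.66 in 2xSCS2F10 and 0.00 in 2xSCS70, beside 0.00 for all tested genes in both lines. The ligand medians include Cxcl2, Cxcl5 and Ccl5, which had few fragments in 2xSCS2F10. Ribosomal RNA left after selection (Rn45s) was also a larger share of counts in replicate 2 of each line, 5.92% against 2.22% in 2xSCS70 and 8.27% against 3.74% in 2xSCS2F10. Leukocyte markers summed to 5.35 CPM in replicate 2 and 3.80 CPM in replicate 1 of 2xSCS2F10, with Ptprc at 0 in replicate 2. The part of RNA quality or culture state in the difference between the libraries was not tested.

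**Figure D3:**
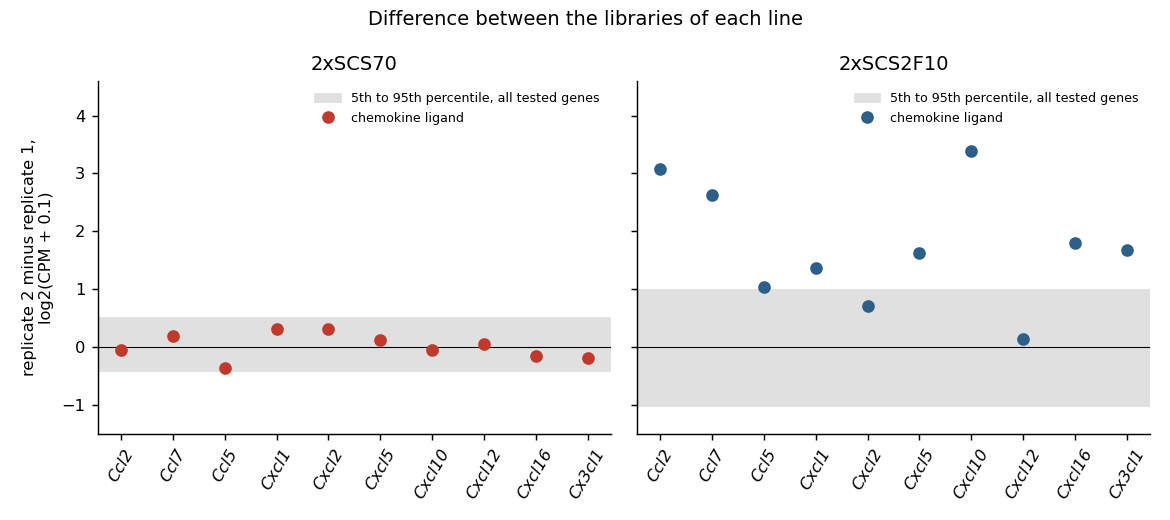
Difference between replicate 2 and replicate 1 within each line, in log2(CPM + 0.1), for the 10 ligands (points), with the range from the 5th to the 95th percentile of all tested genes shaded. The ligands of 2xSCS70 stay within the shaded range, while 8 of those of 2xSCS2F10 lie above it and Cxcl2 and Cxcl12 within it. Of the 8, Cxcl5 and Ccl5 had 0 fragments in replicate 1 and 4 and 2 in replicate 2, so their place depends on the added 0.1.

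Of the 10 ligands, 8 lie in clusters with related genes, and most of the neighbouring rows had few fragments. The chromosome 5 cluster from Cxcl5 to Cxcl2 spans 146.6 kb and holds 7 gene rows. Next to Cxcl5, the platelet chemokine Ppbp had 11 and 24 fragments in 2xSCS70, against 2 and 1 in 2xSCS2F10, a ratio of 8.66 with an exact 95% interval of 2.73 to 44.0 (edgeR adjusted p = 0.0285). Ppbp passed the low-count filter only through 2xSCS70, so its call is not independent of that filter. The neighbouring Pf4, also known from platelets, had 5 and 6 fragments in 2xSCS70 and 0 in 2xSCS2F10, and was not tested for its low counts. Further along, Cxcl3 had at most 2 fragments in any library, and Cxcl15 had 22 and 20 fragments in 2xSCS70, against 53 and 11 in 2xSCS2F10. On chromosome 11, the other 4 rows of the 144.2 kb cluster that begins with Ccl2 and Ccl7 (Ccl11, Ccl12, Ccl8 and Ccl1) had 12 fragments at most in any library. Among the neighbours of Ccl5 the chemokine with most fragments was Ccl9, a myeloid cell attractant, with 139 and 126 fragments in 2xSCS70, against 120 and 199 in 2xSCS2F10 (edgeR adjusted p = 0.125). Near Cx3cl1 on chromosome 8, Ccl17, a ligand of Ccr4, had 49 and 64 fragments in 2xSCS70, against 0 and 11 in 2xSCS2F10 (adjusted p = 0.0954). In the annotation the rows of Ccl2, Ccl5 and Ccl7 all overlap that of Mir684-1, which had at most 1 fragment in a library. That row thus runs across the whole stretch from Ccl2 to Ccl5. These neighbours were taken by position.

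**Figure D4:**
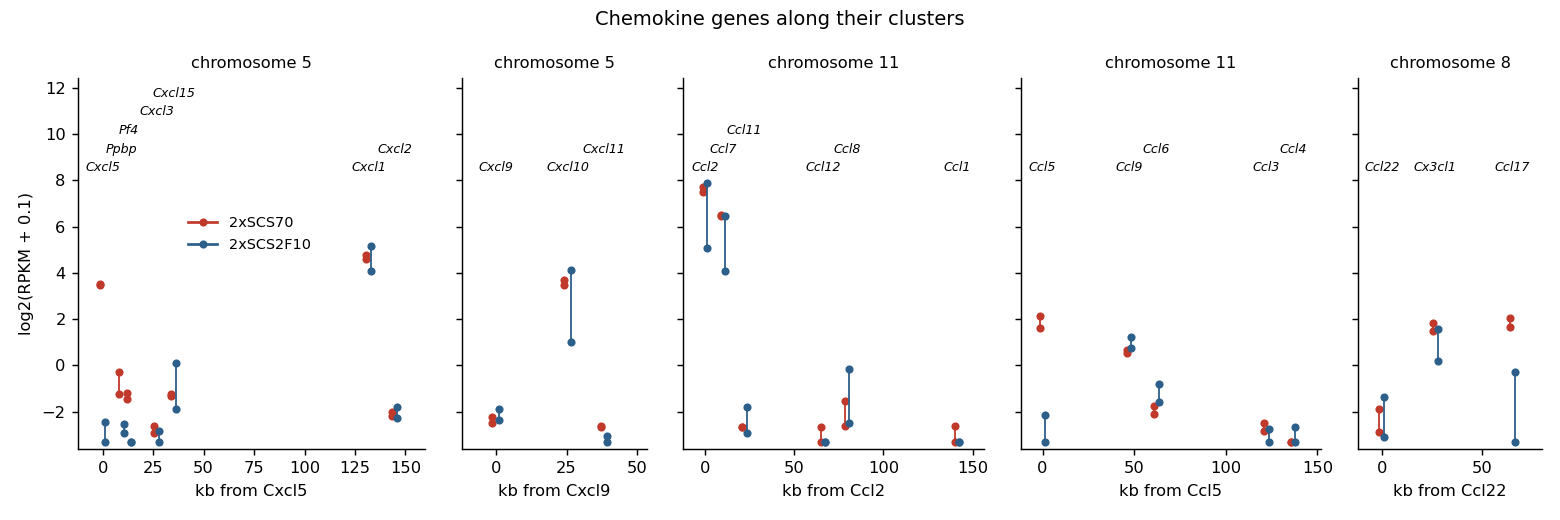
Level of the chemokine genes of 5 clusters, as log2(RPKM + 0.1), against the distance of their starts from the first gene in kb, with each line's 2 libraries joined by a vertical bar (2xSCS70 red, set slightly to the left, 2xSCS2F10 blue, set slightly to the right). Names stand above their genes. Ccl2, Ccl7, Cxcl1 and Cxcl10 stand out in both lines, and Cxcl5, Ccl5 and Ccl17 in 2xSCS70.

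Among 27 other chemokine ligands, 12 were tested, of which 2 were higher and 2 lower in 2xSCS70. This count and those of the lists after it stand beside 18.8% higher and 21.8% lower of all tested genes, and those without 1 library beside the shares given for the ligands. Ccl20, the ligand of Ccr6, was 3.08-fold lower (8.42 ± 1.23 CPM in 2xSCS70 and 25.9 ± 1.64 CPM in 2xSCS2F10, SD, n = 2 each, edgeR adjusted p = 0.00336), and the mucosal chemokine Ccl28 was also lower (15 and 16 fragments in 2xSCS70, against 33 and 32 in 2xSCS2F10, adjusted p = 0.0216). Ccl25, the ligand of Ccr9, was 1.76-fold higher (8.45 ± 1.43 and 4.80 ± 0.478 CPM, adjusted p = 0.0421), and Ppbp was the other higher gene. The edgeR calls of all 4 ended when 2xSCS70 replicate 1 or replicate 2 was left out. With 2xSCS2F10 replicate 1 left out, 4 were called higher and 5 lower, and without its replicate 2, 3 and 5. The call of Ccl25 also ended with a replicate block (adjusted p = 0.0694).

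The receptors of these ligands were low or undetected in both lines. Of 23 receptor genes, Cxcr3, Ccr6, Ccr8 and Ackr1 (Darc in the tables) had 0 counts in every library, and Ccr2, the receptor of Ccl2 and Ccl7, had 1 fragment in 2xSCS2F10 replicate 1 and 0 elsewhere. The Cxcl12 receptor Cxcr4 had 3 and 0 fragments in 2xSCS70 and 0 in 2xSCS2F10. Of 11 tested receptors 3 were higher and 1 lower in 2xSCS70. Cxcr2, the receptor of Cxcl1, Cxcl2 and Cxcl5, was higher, with 300 and 349 fragments in 2xSCS70, against 111 and 120 in 2xSCS2F10 (log2 fold change 1.07, SE 0.22, edgeR adjusted p = 0.0178). Ccr4 (15 and 12 fragments, against 2 and 3, adjusted p = 0.03) and the decoy receptor Ackr2 (Ccbp2 in the tables, 8 and 8 fragments, against 1 and 1, a ratio of 5.94 with an exact 95% interval of 1.40 to 53.2) were also higher. Ccr7 was lower (1 and 2 fragments in 2xSCS70, against 10 and 27 in 2xSCS2F10, a ratio of 16.6 for 2xSCS2F10 over 2xSCS70, interval 5.26 to 84.2). Ackr3 (Cxcr7 in the tables), a receptor that removes Cxcl12, had 231 and 225 fragments in 2xSCS70, against 615 and 83 in replicates 1 and 2 of 2xSCS2F10 (adjusted p = 0.376). It was singled out after its values were seen, and it differed between the 2xSCS2F10 libraries in the direction opposite to the ligands. The edgeR calls of all 4 receptors ended without 2xSCS70 replicate 1 or without its replicate 2. Without 2xSCS2F10 replicate 1, 4 receptors were called higher and 3 lower, and without its replicate 2, 3 and 2. The calls of Ccr4 and Ackr2 also ended in DESeq2 (adjusted p = 0.11 and 0.128), with a replicate block (0.0684 and 0.0654) and with no filter (0.0556 and 0.064). Ccr4 and Ackr2 passed the low-count filter only through 2xSCS70, and Ccr7 only through 2xSCS2F10. Their calls are therefore not independent of that filter.

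Of 9 genes that process or retain chemokines, 3 were higher and 3 lower in 2xSCS70. Mmp9, a gelatinase that trims several CXC ligands, was higher, with 1080 and 933 fragments in 2xSCS70, against 2 and 1 in 2xSCS2F10, and Mmp2, which cleaves Cxcl12, was lower (46.2 ± 0.985 CPM in 2xSCS70 and 796 ± 412 CPM in 2xSCS2F10, SD, n = 2 each, edgeR adjusted p = 0.00288). Dpp4, a peptidase that inactivates Cxcl12 and Cxcl10, had 2 and 0 fragments in 2xSCS70, against 107 and 175 in 2xSCS2F10, a ratio of 190 for 2xSCS2F10 over 2xSCS70 with an exact 95% interval of 52.1 to 1576 (adjusted p = 0.00317). Mmp9 passed the low-count filter only through 2xSCS70 and Dpp4 only through 2xSCS2F10, so their calls are not independent of that filter. The proteoglycan Sdc4 was lower (142 ± 10.2 and 275 ± 45.2 CPM, adjusted p = 0.0104), whereas the related Sdc1 was higher (489 ± 25.5 and 276 ± 74.0 CPM, adjusted p = 0.0334). Ndst1 was also higher (142 ± 6.99 and 98.6 ± 7.57 CPM, adjusted p = 0.0259). Sdc1 and Ndst1 are named to complete the calls of this list. The sheddases did not pass, with Adam10 at 291 CPM in 2xSCS70 and 331 CPM in 2xSCS2F10 (edgeR adjusted p = 0.243) and Adam17 at 62.8 CPM in 2xSCS70 and 51.1 CPM in 2xSCS2F10 (0.179). Without 2xSCS70 replicate 1 or without its replicate 2, 1 gene of the list was called higher and 1 lower, and without 2xSCS2F10 replicate 2, 5 were called higher and 3 lower.

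Of 14 NF-kB factors and inhibitors, 3 were higher and 0 lower in 2xSCS70 by edgeR, beside 18.8% and 21.8% of all tested genes, so the share called higher was near that of genes in general. The other 11 did not pass (0 lower also at an unadjusted p under 0.05 and in DESeq2). The higher genes were Nfkbiz, a nuclear co-factor that NF-kB itself induces (133 ± 8.77 CPM in 2xSCS70 and 46.2 ± 5.14 CPM in 2xSCS2F10, SD, n = 2 each, log2 fold change 1.53, SE 0.14, edgeR adjusted p = 0.00222), the kinase subunit Ikbkg (log2 0.84, adjusted p = 0.00689) and the inhibitor Nfkbia (log2 1.08, adjusted p = 0.0222). The list's median log2 fold change was 0.26, and between replicates 2 and 1 of 2xSCS2F10 its median log2 difference was 0.22. In replicate 2 of that line 10 of 14 genes were higher (49.8% of all tested genes) and 0 more than 2-fold higher (6.51%). Of 13 receptors and adaptors upstream of NF-kB, 4 were higher and 1 was lower. Il17ra, a subunit of the interleukin-17 receptor, was higher (66.0 ± 2.50 CPM in 2xSCS70 and 13.2 ± 0.166 CPM in 2xSCS2F10, adjusted p = 0.000688), as were its partner Il17rc (log2 0.85, adjusted p = 0.0112) and the kinase Irak1 (log2 0.92, adjusted p = 0.00599). The tumour necrosis factor receptor Tnfrsf1a was lower (log2 -0.53, adjusted p = 0.0175), a call that ended on log2(RPKM + 1) values (0.247). With 2xSCS70 replicate 1 or replicate 2 left out, 1 gene of each list was still called, as higher. With 2xSCS2F10 replicate 1 left out, 5 NF-kB genes were called higher and 3 lower (32.9% and 33.1% of all tested genes), and without its replicate 2, 9 and 0 (30.2% and 31.6%). Of the upstream genes these counts were 5 and 5, and 7 and 3.

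Of 12 interferon pathway factors, 6 were higher and 2 lower in 2xSCS70 (18.8% and 21.8% of all tested genes), a median log2 fold change of 0.46. Irf1, a transcription factor induced by interferon gamma, was higher (39.9 ± 2.89 CPM in 2xSCS70 and 20.9 ± 1.67 CPM in 2xSCS2F10, SD, n = 2 each, edgeR adjusted p = 0.00783), as was the RNA sensor Ifih1 (25.2 ± 0.799 and 11.1 ± 2.51 CPM, adjusted p = 0.0109). The receptor chains Ifngr2 (log2 -0.75, adjusted p = 0.0092) and Ifnar2 (log2 -0.81, adjusted p = 0.00913) were lower, and both calls ended on log2(RPKM + 1) values (0.107 and 0.0687). All 8 edgeR calls ended with 2xSCS70 replicate 1 or its replicate 2 left out. Without 2xSCS2F10 replicate 1, 6 genes were called higher and 5 lower (32.9% and 33.1% of all tested genes), and without its replicate 2, 8 and 3 (30.2% and 31.6%). Between replicates 2 and 1 of 2xSCS2F10 the median log2 difference of this list was 0.21, against 1.66 for the ligands. In replicate 2 of that line 8 of 12 genes were higher (49.8% of all tested genes) and 1 more than 2-fold higher (6.51%).

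**Figure D5:**
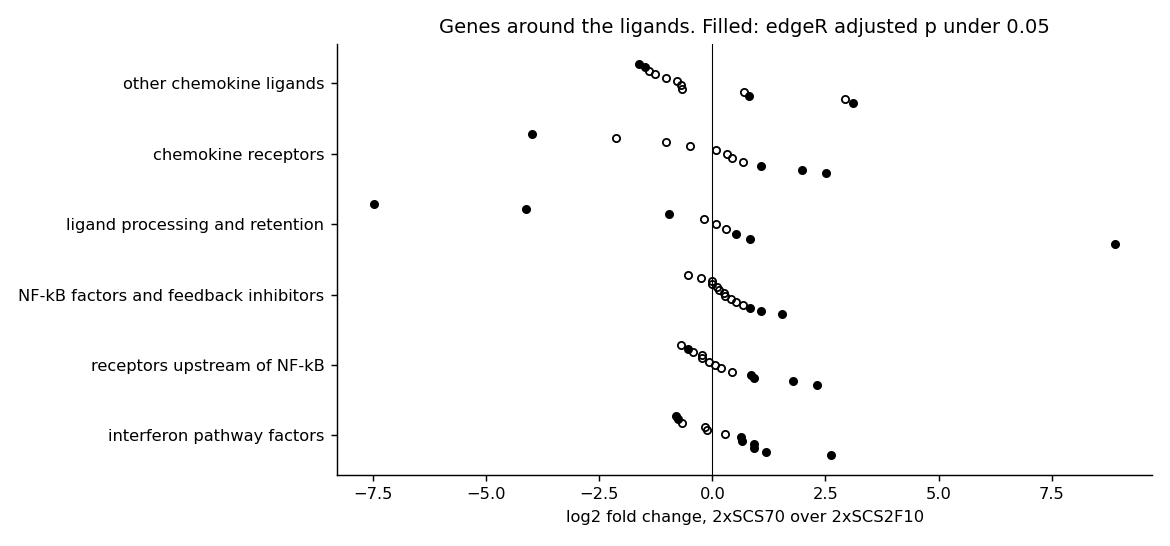
The log2 fold change of each tested gene of 6 lists around the ligands, 2xSCS70 over 2xSCS2F10, with filled points where the edgeR adjusted p was under 0.05 and open points otherwise. Points are spread vertically within a list by rank. Filled points lie on both sides of 0 in each list but that of NF-kB factors and feedback inhibitors, where 3 of 14 are filled, beside 40.6% of all tested genes.

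Among markers of other cell types, which could bear on leukocyte chemokines, 3 of 11 leukocyte markers were tested. Lyz2 and Cd68 passed, both higher in 2xSCS70, where 18.8% of all tested genes were called higher. Csf1r did not pass and went the other way (27 and 31 fragments in 2xSCS70, against 37 and 65 in 2xSCS2F10, log2 fold change -1.24, edgeR adjusted p = 0.0626). Lyz2, the lysozyme of myeloid cells, had 36 and 54 fragments in 2xSCS70, against 3 and 3 in 2xSCS2F10 (edgeR adjusted p = 0.00661), and Cd68 had 80 and 95, against 30 and 33 (adjusted p = 0.0407). Of the endothelial markers Cdh5 was at least 2.98-fold higher (10 and 14 fragments in 2xSCS70, against 0 in 2xSCS2F10) and Tek was lower (4 and 4 fragments, against 17 and 20). Lyz2 and Cdh5 passed the low-count filter only through 2xSCS70 and Tek only through 2xSCS2F10, so their calls are not independent of that filter. The calls of Lyz2 and Cd68 both ended without 2xSCS70 replicate 2, that of Cd68 also without replicate 1 and with a replicate block (adjusted p = 0.058), and those of Cdh5 and Tek ended with either left out. The 6 mesothelial markers, Msln, Upk3b, Upk1b and Wt1 among them, were all lower (Msln 7.64 ± 1.15 CPM in 2xSCS70 and 287 ± 5.75 CPM in 2xSCS2F10, SD, n = 2 each, adjusted p = 0.000347). Mesothelial markers summed to 3916 CPM in replicate 2 and 3413 CPM in replicate 1 of 2xSCS2F10. Their part in the difference of the ligands was not tested.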

How the data were processed

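Per the labels' protocols, RNA came from a miRNeasy extraction and libraries from the TruSeq mRNA kit v2, which does not mark strand. The tools TopHat2 2.0.6, Bowtie and HTSeq and the build mm10 are named in the submitters' processing notes, while the annotation was not given in the sources used here. Each deposited table gives a count and an RPKM value per gene, per the file headers. All counts were even (0 odd values), so 1 fragment was taken as 2 counts. Depth was 20159986 to 24485632 fragments in genes, and a floor of 3 fragments was 0.109 to 0.157 CPM. Between the tables of replicates 1 and 2, the spelling of gene names differed in 25 rows, none of them a ligand.

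The comparison of lines used edgeR 4.0.16 (R 4.3.3) (quasi-likelihood test, TMM scaling, filterByExpr, line as the only term). It was first run on simulated counts with the same spread in both lines. That run does not cover the unequal replicate spread of these lines. The filter left 14496 of 23358 genes and all 10 ligands, Cxcl5 and Ccl5 only through 2xSCS70. The SE is the log2 fold change over the root of the F statistic. Ratios of low counts have exact (Clopper-Pearson) 95% intervals on fragments, scaled by TMM library size; these and floors cover counting error only. Replicate medians used log2(CPM + 0.1). Upstream sequences and current symbols came from RefSeq; 5 receptor and marker rows carry older symbols. Alternatives were a replicate block, 2 other scalings (upper quartile, RLE), other filters (none, or a mean of 5 CPM), halved counts, DESeq2 1.42.0, limma-voom, limma 3.58.1 on RPKM after adding 1 or 0.1 and taking log2, glmTreat at 1.5-fold, and each library left out with the tested genes kept.

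The ligands and gene lists were chosen with earlier results of these data known. Named were all 10 ligands, up to 4 called genes of each list by adjusted p, and genes said to be chosen otherwise. Figures were made in Python 3.11.15 with matplotlib 3.10.9.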

Additional observations from a re-analysis of the deposited data

How the results depend on the processing

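With a mean of at least 5 CPM required, 1 ligand was called higher, because Ccl5 and Cxcl2 were not tested; Cxcl2 was also not tested on halved counts. With 1 library left out at a time, the ligands called higher numbered 1 to 8 and those called lower 0 to 6. Under every other alternative 2 were higher and 1 lower, including the replicate number as a block (2 and 1). Deviations of same-numbered libraries correlated at 0.0539 across 14496 genes. Whether same-numbered libraries share a batch was not tested. Signs turned only for ligands that did not pass the test on all libraries. For Cxcl1 the log2 fold change was 0.06 on log2(RPKM + 1) values, 0.07 on log2(RPKM + 0.1) values and 0.52 without 2xSCS2F10 replicate 2. For Cxcl10 it was 0.72 with the replicate block, 0.05 under upper quartile scaling, 0.81 in limma-voom, 0.81 and 1.01 on the RPKM scales and 2.51 without 2xSCS2F10 replicate 2, and without that library it was 0.17 for Cxcl2 and 0.55 for Cxcl16. Without 2xSCS2F10 replicate 1 it was -0.66 for Ccl2, -0.33 for Ccl7 and -0.30 for Cx3cl1, and it kept its sign at -0.86 for Cxcl1, -0.86 for Cxcl2, -0.94 for Cxcl10 and -1.28 for Cxcl16. Without 2xSCS2F10 replicate 2 it was 2.43 for Ccl2, 2.32 for Ccl7 and 1.42 for Cx3cl1. The cause was not tested. Among the other named genes, the replicate block ended the calls of Ccl25, Ccr4, Ackr2 and Cd68 and no other. The test against 1.5-fold ended those of Ccl28, Ppbp, Ccl25, Cxcr2, Ccr4, Sdc4, Sdc1, Ndst1, Ikbkg, Nfkbia, Il17rc, Tnfrsf1a, Ifnar2, Ifngr2, Igf1r and Cd68. The median of all genes stood at 0.02, at 0.11 under upper quartile scaling and at 0.15 and 0.25 on the RPKM scales, so signs near 0 are relative to that shift. Depth limits Cxcl2, and Cxcl5 and Ccl5 in 2xSCS2F10.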
